A study of Rattus norvegicus with 18 samples.

Results

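The complement genes described here were taken by their annotated symbols and are C1qa, C1qb and C1qc (the chains of C1q), C1s, C2 and Cfd (proteases), Serping1 (a regulator), and C3ar1 and C5ar1 (receptors). They are 9 of 12331 named genes with a tested probe and are read by 12 of 33800 tested probes, so that C2, C3ar1 and C5ar1 have a second probe each. The study asked which transcripts of the rat hippocampus change between status epilepticus, a prolonged seizure, and the start of spontaneous seizures. Male adult Wistar rats received scopolamine methylnitrate and then pilocarpine, a cholinergic agonist, and the ensuing status epilepticus was stopped with diazepam. Whole hippocampi were hybridized singly to one-colour CodeLink oligonucleotide arrays. The groups were D3, taken 3 days after status epilepticus (n = 5), D7, taken 7 days after it (n = 5), Chronic, taken shortly after the first spontaneous seizure (n = 5), and Control, rats given only saline (n = 3). By the study, the first spontaneous seizure came later than the D7 time, after a number of days that varied between rats. Chronic therefore differs from D3 and D7 in both elapsed days and a recent seizure, which cannot be told apart. The study states an age-matched saline group for each time, and 1 array per time is used here. Control rats had no scopolamine, pilocarpine, diazepam or status epilepticus, so the parts of these 4 cannot be told apart, and the pilocarpine groups hold only rats that entered status epilepticus and survived.

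Complement is a cascade of secreted proteins. In the classical pathway C1q binds to its targets, among them antibodies and the surfaces of dying cells, and activates the proteases C1r and C1s, which cleave C4 and C2 into a convertase that splits C3. In the alternative pathway factor D, the product of Cfd, cleaves factor B. The released fragments C3a and C5a act on receptors of myeloid cells. In brain, C1q comes mostly from microglia, and C1q and C3 are known to tag synapses for removal.

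Intensities are in the normalized unit of the array software, in which each array's signal is divided by a constant of its own (97.3 to 189.8). Spots flagged G stood above background, and spots flagged L lay near it. A gene was called where limma's adjusted p was under 0.05 and the change reached 2-fold. Of the spots of an array, 66.0 to 76.0% were flagged G, and any pair of arrays correlated at 0.928 to 0.97. Of 8 neuron markers of the tissue, 5 were measured, and Snap25 among them was flagged G on 1 of 18 arrays. Their summed intensity was 73.1 to 104 in D3, 69.1 to 126 in D7, 94.6 to 136 in Chronic and 149 to 164 in Control. Choroid plexus markers, which depend on dissection, summed to 5.0 to 58.5 in D3, 4.83 to 83.8 in D7, 7.63 to 267 in Chronic and 13.8 to 266 in Control, and their part in the results was not tested.

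All 9 members were called higher than Control in D3 and in D7, and 8 of 9 were in Chronic. The exception in Chronic was C5ar1, which is counted here by 1 of its 2 probes, and the other was not called at any time. Over all 12331 genes the share called higher was 5.09% in D3, 3.8% in D7 and 2.87% in Chronic. At all 3 times 8 of 9 members were called higher, against 2.12% of all genes. The members were chosen with earlier results of these data known, so these counts describe them and are not a test. The 3 comparisons share the Control arrays. No member was called lower at any time, where 0.973% of all genes were in D3, 0.487% in D7 and 0.673% in Chronic. Without C1s, which lay near background, the counts were 8 of 8 in D3, 8 of 8 in D7 and 7 of 8 in Chronic. The median log2 fold change of the 9 members was 2.15 in D3, 2.00 in D7 and 1.73 in Chronic. Without C1s the medians were 2.14, 2.07 and 1.68, and over all genes they were -0.10, -0.12 and -0.12. When each time was set against its own control array alone, 7 of 8 testable members were called in D3, 6 of 8 in D7 and 1 of 8 (C1qa) in Chronic, with median log2 fold changes of 2.32, 2.20 and 1.54. The methods' t-test, after Benjamini-Hochberg adjustment, called 9 members in D3, 3 in D7 and 5 in Chronic. In whole tissue, more cells of a type and more RNA per cell cannot be told apart.

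**Figure D1:**
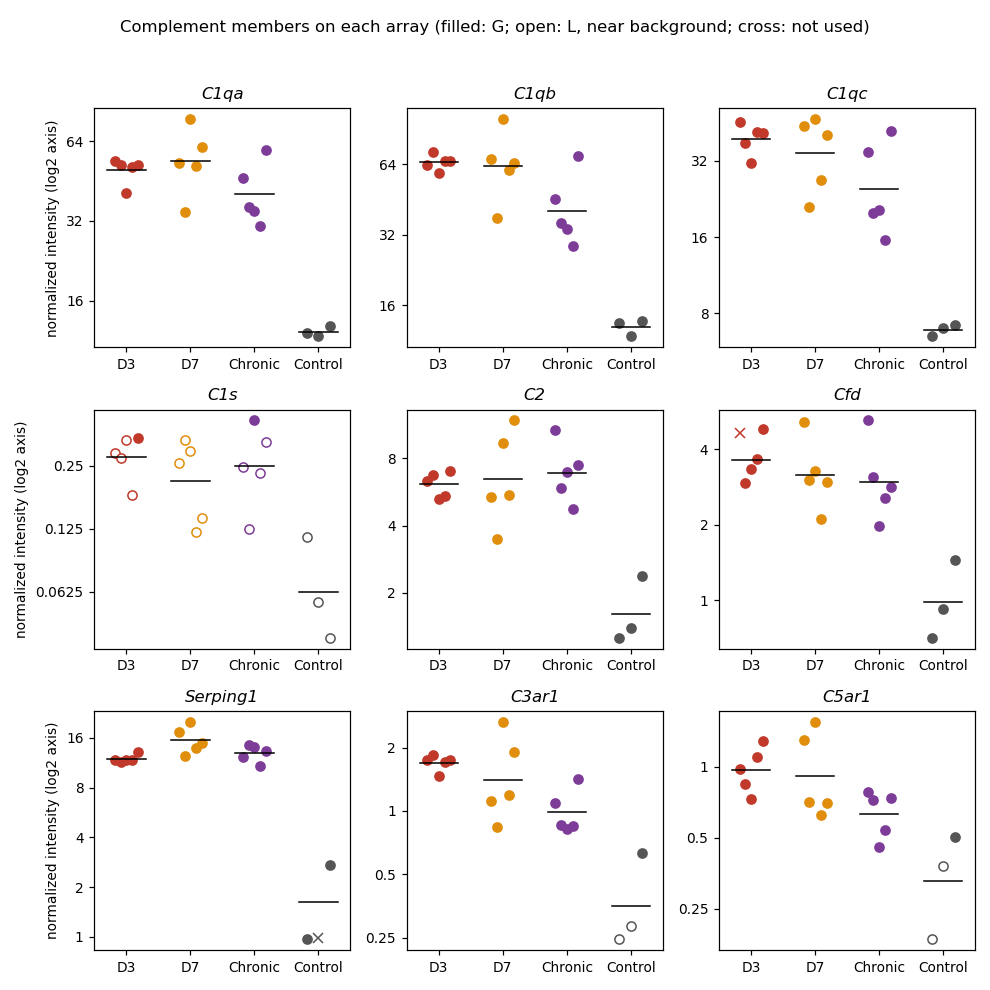
Normalized intensity (log2 axis) of the 9 members on each of the 18 arrays, for D3, D7, Chronic and Control. Filled points were flagged G, open points L, crosses were left out, and the bar is the mean of the log2 values. Every pilocarpine array lies above every Control array for 9 members in D3, 9 in D7 and 8 in Chronic, beside 16.1%, 9.21% and 8.07% of all genes.

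Values are given below in the order of replicates 12, 11, 13, 14 and 15 in D3, 31 to 35 in D7, 41 to 45 in Chronic, and 26, 36 and 47 in Control, which are the controls of D3, D7 and Chronic in that order. Control is the last group in each list.

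The 3 chains of C1q, the recognition subunit of the classical pathway, are encoded by neighbouring genes on chromosome 5, in the order C1qb, C1qc, C1qa in RefSeq. All 3 were flagged G on all 18 arrays. C1qa intensities were 53.9, 51.9, 40.8, 51.2 and 52.1 in D3, 53.1, 34.5, 77.7, 51.7 and 60.7 in D7, 46.6, 36.2, 34.9, 30.6 and 59.4 in Chronic, and 12.1, 11.7 and 12.8 in Control. The lowest pilocarpine array, 30.6, was 2.40 times the highest Control array. C1qa rose by 2.03 ± 0.21 on the log2 scale in D3 (SE, n = 5 against 3, adjusted p = 4.92e-06), by 2.14 ± 0.21 in D7 (adjusted p = 9.77e-06) and by 1.73 ± 0.21 in Chronic (adjusted p = 0.000117).

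C1qb intensities were 63.3, 72.1, 58.5, 66.0 and 65.9 in D3, 67.2, 37.6, 99.5, 60.5 and 64.6 in D7, 45.5, 35.9, 34, 28.6 and 69.0 in Chronic, and 13.5, 11.8 and 13.8 in Control. All pilocarpine arrays were above Control, whereas 1 Chronic array, replicate 45, lay among the D3 arrays. The log2 fold change was 2.32 ± 0.25 in D3, 2.27 ± 0.25 in D7 and 1.64 ± 0.25 in Chronic, with adjusted p of 6.58e-06, 1.75e-05 and 0.000604. C1qc intensities were 45.4, 37.6, 31.5, 41.7 and 41.2 in D3, 43.8, 21.1, 46.8, 26.9 and 40.4 in D7, 34.8, 20.0, 20.5, 15.6 and 42.1 in Chronic, and 6.48, 6.98 and 7.20 in Control. The log2 fold change of C1qc was 2.51 ± 0.28 in D3, 2.32 ± 0.28 in D7 and 1.85 ± 0.28 in Chronic, and no pilocarpine array reached down to Control.

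The spread of the C1q chains was not the same in all groups. Their log2 SD was 0.11 to 0.20 in D3, 0.43 to 0.50 in D7, 0.38 to 0.60 in Chronic and 0.06 to 0.12 in Control. The low spread in Control was not shared by the members as a set. Their median SD was 0.18 in D3, 0.50 in D7, 0.43 in Chronic and 0.53 in Control. The median SD over the 8478 genes flagged G on every array was 0.13, 0.20, 0.21 and 0.12 in those groups. The same arrays carried the extremes of all 3 chains: replicate 33 was the highest and replicate 32 the lowest in D7, and replicate 45 was the highest and replicate 44 the lowest in Chronic. Taken as deviations from the group means over the 18 arrays, the chains correlated with each other at 0.88 to 0.96, a description of arrays that share 1 scaling constant for all probes. The median over the 36 pairs of members was 0.49.

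Promoter windows are shown for both C1q genes found in the RefSeq table, since these neighbours moved together, and for 1 receptor gene, C3ar1. Each covers 250 bases before and 50 after the start of the gene in GRCr8, 5′ to 3′ on the gene's strand (minus), and capitals mark motif matches. Of the 9 members, 4 were in the table.
C1qa, chr5:154419884-154420183: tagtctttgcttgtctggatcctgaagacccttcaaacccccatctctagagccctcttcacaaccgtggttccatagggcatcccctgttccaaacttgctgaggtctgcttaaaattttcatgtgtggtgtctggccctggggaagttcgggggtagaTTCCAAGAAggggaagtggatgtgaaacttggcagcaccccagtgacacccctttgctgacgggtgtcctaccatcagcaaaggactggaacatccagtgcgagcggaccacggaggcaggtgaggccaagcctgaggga
C1qb, chr5:154407778-154408077: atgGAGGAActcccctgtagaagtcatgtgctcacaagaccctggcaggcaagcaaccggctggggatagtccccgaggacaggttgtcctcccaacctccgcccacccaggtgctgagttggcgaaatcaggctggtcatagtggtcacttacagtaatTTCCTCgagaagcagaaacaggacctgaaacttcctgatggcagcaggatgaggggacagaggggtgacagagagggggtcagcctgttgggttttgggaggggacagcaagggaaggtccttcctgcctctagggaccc
C3ar1, chr4:157756481-157756780: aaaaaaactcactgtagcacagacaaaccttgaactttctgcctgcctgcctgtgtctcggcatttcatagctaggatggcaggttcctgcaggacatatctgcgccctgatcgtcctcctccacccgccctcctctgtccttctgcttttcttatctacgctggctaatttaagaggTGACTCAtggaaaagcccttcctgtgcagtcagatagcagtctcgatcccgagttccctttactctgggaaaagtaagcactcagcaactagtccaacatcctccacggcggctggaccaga
Motifs were searched by their letters on both strands. C1qb held the PU.1 core GAGGAA at 247 bases before the start and, on the opposite strand, at 90 bases before it, a motif present in 27.6% of all 33469 windows. C1qa held the STAT-type GAS letters TTCNNNGAA at 90 bases before the start, present in 8.87% of windows. C3ar1 held the AP-1 letters TGAGTCA on the opposite strand at 72 bases before the start, present in 4.63% of windows. The Cfd window held none of these 3 motifs and is not printed. These matches are letters in a window and were not tested for binding.

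C1s, which encodes the classical pathway protease that cleaves C4 and C2, was near background. Its spot was flagged G on 2 of 18 arrays, D3 replicate 15 and Chronic replicate 43. Intensities were 0.288, 0.272, 0.331, 0.181 and 0.338 in D3, 0.256, 0.330, 0.293, 0.120 and 0.140 in D7, 0.245, 0.125, 0.410, 0.230 and 0.324 in Chronic, and 0.114, 0.0561 and 0.0377 in Control. Every pilocarpine array was above every Control array, by 1.05 times at the closest. The fit called it in D3, D7 and Chronic (adjusted p = 0.00186, 0.0103 and 0.00612). No fold is given, because the Control spots lay below the lowest intensity flagged G, and with values raised to that floor C1s was not called at any time.

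C2, the component that supplies the protease of the classical convertase, had both probes flagged G on all 18 arrays. The probe that stands for the gene read 6.33, 6.76, 5.28, 5.43 and 7.01 in D3, 5.36, 3.49, 9.37, 5.48 and 11.8 in D7, 10.7, 5.90, 6.91, 4.73 and 7.43 in Chronic, and 1.26, 1.4 and 2.39 in Control. The log2 fold change was 1.92 ± 0.31 in D3, 2.00 ± 0.31 in D7 and 2.09 ± 0.31 in Chronic, with adjusted p of 0.000302, 0.000464 and 0.000573. The second probe gave 2.10 ± 0.29, 2.23 ± 0.29 and 2.04 ± 0.29. D7 replicates 33 and 35 were the high arrays of their group on both probes.

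Cfd, which encodes factor D of the alternative pathway, read 2.94, 3.34, 3.67 and 4.81 in D3, where the spot of replicate 12 was flagged and left out. It read 5.13, 3.03, 3.28, 2.11 and 2.96 in D7, 5.22, 3.10, 1.98, 2.56 and 2.83 in Chronic, and 0.706, 0.921 and 1.45 in Control. Replicate 31 in D7 and replicate 41 in Chronic stood highest of their groups, and these are not the arrays that were highest for C1q. The log2 fold change was 1.89 ± 0.30 in D3 (n = 4 against 3), 1.69 ± 0.29 in D7 and 1.60 ± 0.29 in Chronic, with adjusted p of 0.000353, 0.00123 and 0.0024. Against its own control array the Chronic value was 1.03 ± 0.42 (adjusted p = 0.303).

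Serping1, which encodes C1 inhibitor, the serpin that inactivates C1r and C1s, had the highest fold change at each time of the 8 members given one, a rank that rests on 2 Control arrays. Its intensities were 11.7, 11.5, 11.8, 11.7 and 13.2 in D3, 17.3, 12.5, 20.0, 13.9 and 14.8 in D7, and 12.3, 14.4, 14.1, 10.8 and 13.4 in Chronic. In Control it read 0.966 and 2.73, and the spot of replicate 36, which read 0.982, was flagged and left out. The lowest pilocarpine array was 3.96 times the highest Control array used, and on the log2 scale the 2 Control values lay further apart than the 15 pilocarpine values. The rise was 7.36-fold in D3, 9.53-fold in D7 and 7.96-fold in Chronic (n = 5 against 2), with adjusted p of 1.72e-06, 1.29e-06 and 3.86e-06. With the methods' t-test after adjustment the D7 call was lost (adjusted p = 0.0524). Against Control replicate 26 alone the folds were 12.4, 16 and 13.4 in D3, D7 and Chronic, and against replicate 47 alone they were 4.37, 5.66 and 4.73, with no test. Without replicate 26, Serping1 in D3 stood at 2.13 on the log2 scale and had rank 3 of the 8 members given a fold, where C1qc was highest at 2.47. Serping1 kept the highest value in D7 and Chronic. In this ranking Serping1 is set against replicate 47 alone, and the other members against replicates 36 and 47. Its log2 SD was 0.08 in D3, 0.27 in D7 and 0.17 in Chronic, each below the lowest of the C1q chains in that group.

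C3ar1 encodes the receptor for the anaphylatoxin C3a. The probe that stands for it read 1.75, 1.84, 1.46, 1.70 and 1.74 in D3, 1.11, 0.837, 2.65, 1.19 and 1.90 in D7, 1.09, 0.855, 0.821, 0.853 and 1.42 in Chronic, and 0.246, 0.286 and 0.631 in Control, where replicates 26 and 36 were flagged L. The log2 fold change was 2.26 ± 0.32 in D3, 1.99 ± 0.32 in D7 and 1.47 ± 0.32 in Chronic, with adjusted p of 9.24e-05, 0.000595 and 0.00574. All Chronic arrays were below all D3 arrays, a difference of -0.78 ± 0.27 that missed the threshold (adjusted p = 0.144). On the second probe every Control spot was near background, so that C3ar1 was at least 2.78-fold higher in D3, at least 2.62-fold in D7 and at least 1.47-fold in Chronic. Each bound sets the group's mean against Control values lifted, per array, to the dimmest spot flagged G. Against its own control array the Chronic change was 0.64 ± 0.42 (adjusted p = 0.548).

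C5ar1 encodes the receptor for C5a, and its 2 probes differed. Only the probe that does not stand for the gene is listed under a RefSeq transcript. The probe that stands for the gene read 0.982, 0.847, 0.728, 1.10 and 1.29 in D3, 1.30, 0.709, 1.55, 0.624 and 0.701 in D7, 0.781, 0.722, 0.457, 0.538 and 0.734 in Chronic, and 0.186, 0.381 and 0.506 in Control. It was called in D3 (1.56 ± 0.32, adjusted p = 0.00225) and in D7 (1.47 ± 0.32, adjusted p = 0.00558). In Chronic it stood at 0.94 ± 0.32 (adjusted p = 0.0561), and Chronic replicate 43 lay under the highest Control array. The second probe read 0.440 to 0.777 in D3, 0.276 to 0.841 in D7, 0.416 to 0.735 in Chronic and 0.370 to 0.585 in Control, with overlapping groups at each time. Its log2 fold changes were 0.33 ± 0.29, 0.23 ± 0.29 and 0.17 ± 0.29, none of them called. The first probe's D7 call was lost without Control replicate 26 (1.05, adjusted p = 0.0501), against its own control array (1.26, adjusted p = 0.124) and with the methods' t-test after adjustment. In Chronic it was called without Chronic replicate 43 (1.06, adjusted p = 0.0387), without Control replicate 47 (1.25, adjusted p = 0.0316) and with scaling at the percentile 75 (1.05, adjusted p = 0.0485).

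**Figure D2:**
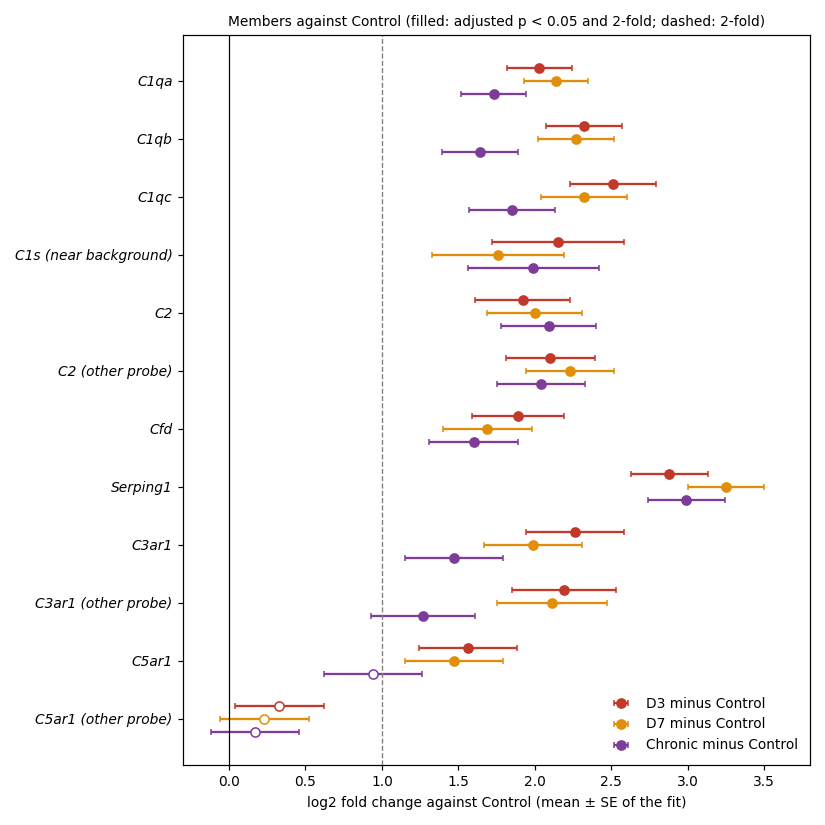
Log2 fold change against Control for each probe of the 9 members in D3, D7 and Chronic, with the standard error of the fit. Filled points were called and the dashed line is 2-fold. The other C5ar1 probe stayed below 2-fold at each time, and the C1s values come from spots near background, so their size is not a fold.

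No member was called between any pair of pilocarpine groups. Over all genes, 0.527% were called in either direction for D7 against D3, 1.12% for Chronic against D3 and 0.0405% for Chronic against D7. At an unadjusted limma p under 0.05, 0 of 9 members differed for D7 against D3, beside 14% of all genes in either direction. At that p 4 of 9 were lower in Chronic than in D3, beside 12.7% of all genes, and 2 of 9 were lower in Chronic than in D7, beside 6.28%. The methods' t-test also called no member after adjustment. The median difference of the 9 members was -0.09 for D7 minus D3, -0.30 for Chronic minus D3 and -0.41 for Chronic minus D7. Without C1s the medians were -0.07, -0.46 and -0.44, and over all genes they were -0.02, -0.03 and -0.01. C1qb stood at -0.68 ± 0.21 for Chronic minus D3 (adjusted p = 0.0981) and -0.63 ± 0.21 for Chronic minus D7 (adjusted p = 0.314). C1qc stood at -0.66 ± 0.24 for Chronic minus D3 (adjusted p = 0.156), and C5ar1 at -0.62 ± 0.28 (adjusted p = 0.272). C2 and Serping1 lay on the other side of 0, at 0.17 ± 0.27 and 0.11 ± 0.19 for Chronic minus D3. By mean log2 level the order was D3, D7, Chronic, Control for C1qb, C1qc, Cfd, C3ar1 and C5ar1, and D7, D3, Chronic, Control for C1qa. It was D7, Chronic, D3, Control for Serping1, Chronic, D7, D3, Control for C2, and D3, Chronic, D7, Control for C1s. In each order the only neighbouring step that was called was the one to Control, except for C5ar1, where no step was called.

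The rest of the pathway was followed with a list of 38 other complement genes, of which 30 had a tested probe of their own. Of these 30, 1 was called higher than Control in D3, 1 in D7 and 1 in Chronic, and none was called lower. Over all genes, 5.09% were called higher in D3, 3.8% in D7 and 2.87% in Chronic. The shares called lower were 0.973%, 0.487% and 0.673%. Like the members, the list was drawn up with earlier results of these data known. The median log2 fold change of the 30 was 0.24 in D3, 0.46 in D7 and 0.13 in Chronic. In D3 the count was 3 under quantile normalization, with Cfp and Itgam added. At the adjusted p alone, 8 were higher and 2 lower in D3, 7 higher and 3 lower in D7, and 4 higher and 1 lower in Chronic. All genes gave 11.8% higher and 16.5% lower in D3, 8.04% higher and 15.5% lower in D7, and 6.28% higher and 12.7% lower in Chronic. Spots of 6 of the 30 genes were flagged G on no array, among them C9 of the terminal complex and the regulator Cfi.

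Fcnb, a ficolin that starts the lectin pathway, was called in D3. It read 2.39, 1.32, 0.905, 0.670 and 2.54 in D3, against 0.114, 0.262 and 0.248 in Control, where every spot was near background, so that it was at least 4.83-fold higher. At D7 it ranged from 0.189 to 2.49 with 3 of 5 spots near background, and in Chronic from 0.263 to 0.715, and neither time was called (adjusted p = 0.109 and 0.217). The D3 call was lost against its own control array (adjusted p = 0.0555), and without D7 replicate 34 Fcnb was called in D7 (adjusted p = 0.0361). Itgam, the alpha chain of complement receptor 3, read 5.56 to 8.42 in D3, 4.06 to 15.6 in D7, 4.47 to 10.3 in Chronic and 2.71 to 4.03 in Control. It was called in D7 (1.12 ± 0.32, adjusted p = 0.0199) and in Chronic (1.16 ± 0.32, adjusted p = 0.0196), and stood at 0.99 ± 0.32 in D3. Without D7 replicate 33 the D7 value fell under 2-fold (0.85), and both later calls were lost without Control replicate 26 or 36.

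Other genes passed the adjusted p below 2-fold. C1r, the partner protease and chromosomal neighbour of C1s, stood at 0.70 ± 0.24 in D3 and 0.74 ± 0.24 in D7. C3, the central component, stood at 0.25 ± 0.18 in D3 (adjusted p = 0.368), 0.55 ± 0.18 in D7 (adjusted p = 0.0414) and 0.77 ± 0.18 in Chronic (adjusted p = 0.00908). Clu, a soluble inhibitor of the terminal complex, stood at 0.49 ± 0.13, 0.67 ± 0.12 and 0.74 ± 0.12 at the 3 times. Susd4, a membrane-bound inhibitor, was lower, at -0.63 ± 0.14, -0.71 ± 0.14 and -0.52 ± 0.14. Csmd1, another membrane inhibitor, stood at -0.71 ± 0.19 in D3 and -0.59 ± 0.19 in D7. The regulators did not all fall: Cr1l, a further regulator on the list, was higher, at 0.60 ± 0.14 in D3 and 0.41 ± 0.14 in D7. Fcna, listed under the lectin pathway, was higher at the 3 times, at 0.72 ± 0.21, 0.91 ± 0.21 and 0.94 ± 0.21. Cfp, which encodes properdin, the stabiliser of the alternative convertase, averaged 7.00 ± 1.23 in D3, 5.41 ± 1.84 in D7, 3.67 ± 0.683 in Chronic and 3.60 ± 0.783 in Control (SD, n = 5, 5, 5 and 3), and Chronic minus D3 was -0.93 ± 0.20 (adjusted p = 0.0158). The only listed gene called between times was C6, a component of the terminal complex, for Chronic against D3 (adjusted p = 0.0193). Its spots were near background on all Chronic arrays, at 0.0769 to 0.198, and were flagged G on 2 of 5 D3 arrays, at 0.240 to 0.449, so that it was at least 1.19-fold higher in D3. The genes of this paragraph were chosen after their values were seen.

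A probe annotated to both C4a and C4b, the near-identical genes of the component cleaved by C1s, was flagged G on all 18 arrays and assigned to neither gene. It read 13.7, 12.6, 10.8, 12.4 and 13.7 in D3, 19.5, 14.4, 33.8, 15.5 and 26.6 in D7, 25.3, 21.2, 22.0, 14.7 and 22.5 in Chronic, and 4.1, 3.96 and 5.76 in Control. The log2 fold change was 1.47 ± 0.22 in D3, 2.20 ± 0.22 in D7 and 2.20 ± 0.22 in Chronic. All D7 and all Chronic arrays were above all D3 arrays, and these differences, 0.72 ± 0.19 each, missed the threshold (adjusted p = 0.0879 for D7 and 0.0511 for Chronic).

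**Figure D3:**
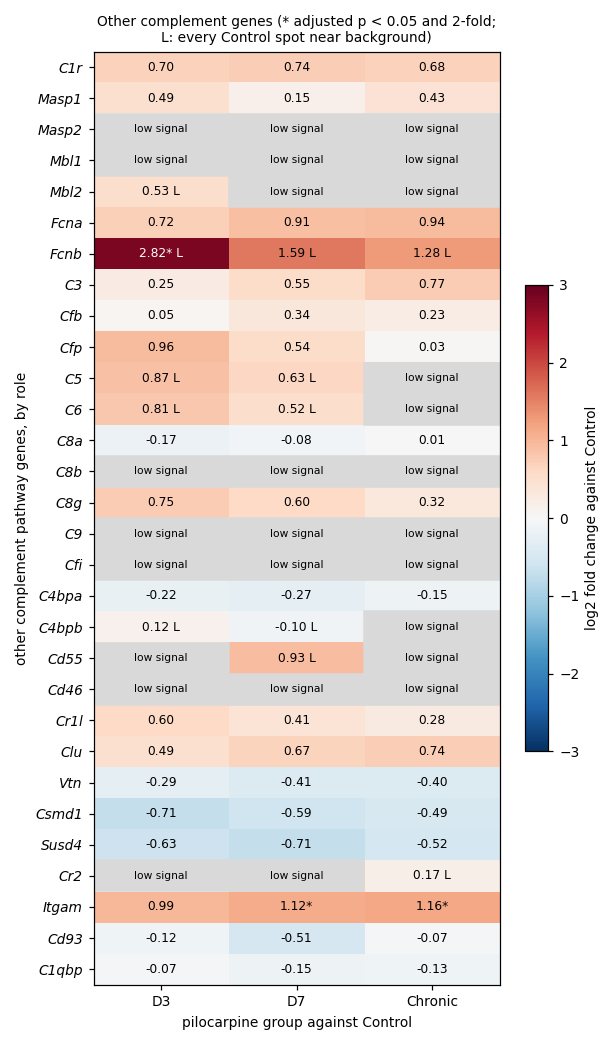
Log2 fold change against Control of the 30 other complement genes with a tested probe in D3, D7 and Chronic. Asterisks mark calls, grey cells stand for genes with no spot flagged G in either group, and L marks genes whose Control spots were all near background, so that the value is not a measured fold. The calls are Fcnb in D3 and Itgam in D7 and Chronic.

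Markers of microglia, the resident macrophages of brain, were higher in the same groups as the members. Of the 9 measured markers, 6 were called higher in D3, 7 in D7 and 5 in Chronic, and Trem2 was flagged G on no array. Their summed intensity was 168 to 218 in D3, 124 to 385 in D7, 124 to 198 in Chronic and 63.6 to 73.5 in Control. Aif1 stood at 1.37 ± 0.28, 1.38 ± 0.28 and 1.02 ± 0.28 on the log2 scale, Cx3cr1 at 1.4 ± 0.36, 1.33 ± 0.36 and 0.80 ± 0.36, and Csf1r at 0.97 ± 0.19, 1.34 ± 0.19 and 0.93 ± 0.19 in D3, D7 and Chronic. D7 replicate 33 had the highest microglial sum, 385, and was the highest D7 array for 6 of 9 members. D7 replicate 32 had the lowest microglial sum, 124, and was the lowest D7 array for 6 of 9. Choroid plexus sums in D7 were also highest in replicate 33, at 83.8, and lowest in replicate 32, at 4.83. Of all arrays, replicate 33 had the lowest mean correlation with its own group, 0.952. Which of these goes with the members was not tested. The D3 arrays were not ordered by the microglial sum. D3 replicate 11, with the highest D3 sum, 218, was the highest array for 2 members and the lowest for 2, whereas replicate 15, highest for 5 of 9, had a sum of 178. In Chronic, replicate 45 had the highest sum, 198, and was highest for 4 of 9, and replicate 44 had the lowest, 124, and was lowest for 5 of 9. By mean log2 marker value the highest Chronic array was instead replicate 43, at 1.55 above Control, where the members' mean was 1.68.

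Of 7 measured monocyte and neutrophil markers, 2 were called higher in D3, 3 in D7 and 1 in Chronic, with sums of 18.9 to 34.1 in D3, 7.55 to 77.6 in D7, 6.67 to 23.3 in Chronic and 4.02 to 5.36 in Control. The sum of 77.6 was that of D7 replicate 31 alone, and the next highest D7 array, replicate 33, stood at 15.4. Of 8 astrocyte markers, 2 were called higher at each time, with sums of 459 to 482 in D3, 408 to 459 in D7, 284 to 408 in Chronic and 308 to 331 in Control. None of 6 oligodendrocyte or 6 endothelial markers was called at any time. The mean log2 value of the 9 members over the Control mean ran from 2.00 to 2.35 in D3, 1.68 to 2.63 in D7 and 1.46 to 2.18 in Chronic, and from -0.23 to 0.31 in Control. Control replicate 47, the array matched to Chronic, was the highest Control array for 8 of 9 members, and its microglial sum was 73.5. The part of cell number in the rise of the members was not tested.

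**Figure D4:**
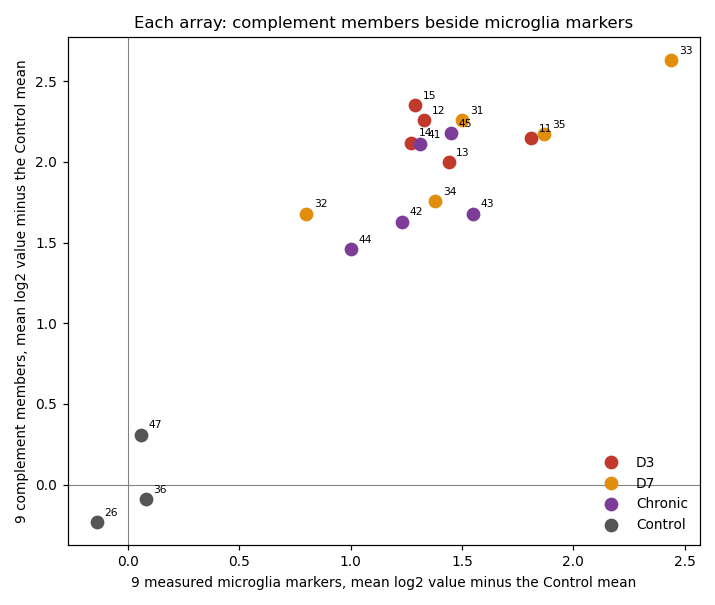
Mean log2 value of the 9 complement members against that of the 9 measured microglia markers on each of the 18 arrays, both minus the Control mean, with replicate numbers beside the points. The 15 pilocarpine arrays lie at 1.46 or more on the vertical axis and the 3 Control arrays at 0.31 or less.

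The genes whose log2 values over the 18 arrays were most like the mean of the members, among 9327 compared, were Unc93b1 and Trpt1 (Pearson r = 0.976 each), Fcgr1a (0.973), Lyl1 (0.971), Ifi30 (0.97), Gpnmb (0.969), Cmtm3 (0.968) and Tbxas1 (0.964). The median r over the 9327 genes was -0.27, and 118 genes exceeded 0.9. On deviations from the group means the same 8 genes stood at 0.90, 0.90, 0.92, 0.91, 0.91, 0.84, 0.81 and 0.86. Fcgr1a encodes the high-affinity IgG receptor, Ifi30 a lysosomal thiol reductase, and Unc93b1 a chaperone of endosomal Toll-like receptors. Gpnmb had the highest rise of the 8 in D3, 3.44 ± 0.22 on the log2 scale.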

How the data were processed

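RNA of 18 rat hippocampi was hybridized to one-colour CodeLink Rat Whole Genome arrays. The authors scanned them with GenePix Pro, subtracted background and normalized in CodeLink Expression Analysis, and deposited normalized intensity values with a quality flag per spot. Flags G and L were kept, as the study's methods did, and 0.496 to 1.108% of spots per array carried another flag and were left out. The deposited value table holds the same intensities and was used only to link 33970 of 33993 lines to spots by equal values at 6 decimals on all arrays. No background column is among the values used. The files state no depth, so the number of arrays limits the precision.

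Genes were named by the platform annotation (16740 probes) or by RefSeq accession (205 probes), and 165 probes naming several genes were assigned to none. A gene was read by its probe of highest mean log2 value. Intensities were floored at the percentile 1 of each array's positive values and taken to log2. Probes needed 3 values in each pilocarpine group and 2 in Control. One limma model (version 3.58.1, R 4.3.3, eBayes with trend) held the 4 groups, with Benjamini-Hochberg adjustment over 33800 probes, and calls needed an adjusted p under 0.05 and 2-fold. Nothing states how the RNA of the samples was handled in batches. The p-values rest on 1 spread per probe, pooled over the 4 groups. Within D3 and D7 this is the spread between rats. In Chronic it also holds differences in days after status epilepticus, since the study states that the time to the first seizure varied. In Control it also holds differences between times, since each of the 3 arrays comes from a different time. The fit was checked before use on simulated data, in which each probe had 1 spread, equal in all groups. That check could not test the pooling of unequal spreads.

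The text names all 9 members, listed pathway genes called against Control at 1 or more times, the first markers of a list, and the 8 genes most like the members' mean, with exceptions marked. The members and lists were chosen with earlier results of these data known. From the list of other pathway genes, 1 gene is not reported here.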

Additional observations from a re-analysis of the deposited data

Results flagged for a closer look

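C1qa in D3 read 40.8 on replicate 13, against 51.2 to 53.9 on the other 4 D3 arrays, a gap wider than Dixon's critical value allows. Serping1 in D3 read 13.2 on replicate 15, against 11.5 to 11.8 on the other 4. Both arrays stayed in all comparisons, and leaving out either kept both genes called in D3. In all, 33 groups of 4 or 5 values were examined and 2 were flagged, where chance flags about 1 in 20. No member, nor Fcnb or Itgam, differed between times at the adjusted p.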

How the results depend on the processing

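The counts of members and their log2 fold changes kept their direction under all alternatives that were run. Of 912 single-gene values, which include Fcnb and Itgam, 858 kept their side of the threshold. That share is partly fixed in advance, since leaving out an array of a group outside the comparison cannot change the fold. With the methods' t-test, 3 members were called in D7 and 5 in Chronic. It lost the calls of C1s, C2, Cfd, Serping1, C3ar1 and C5ar1 in D7, and of C1s, Cfd and C3ar1 in Chronic. With 1 time-matched control array, 1 member (C1qa) was called in Chronic. The lone control is then assumed to vary like the other groups, and Serping1 was not fitted, since that fit kept only probes with a value on all 3 Control arrays. With each of the 18 arrays left out in turn, 8 to 9 members were called in D3, 7 to 9 in D7 and 7 to 9 in Chronic, and no member between times. Without Control replicate 26 or 47 Serping1 had 1 Control value and was not tested. With log2(value + 1), 6 members were called at each time, without C1s and C3ar1, and in D3 and D7 also without C5ar1. The other alternatives moved no count of members by over 1.5 times.

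Of the other pathway genes, in place of 1 at each time, quantile normalization called 3 in D3 and 2 in Chronic. With the percentile 75 as the scaling point, 3 were called in D3, 2 in D7 and 2 in Chronic. Array weights called 2 in D3 and 0 in D7. In D7 and in Chronic, log2(value + 1), the methods' t-test and the time-matched array each called 0. With arrays left out the counts spanned 1 to 3 (D3), 0 to 3 (D7) and 0 to 2 (Chronic). Without Control replicate 26 the D7 and Chronic counts were 0, as without replicate 36, when the D3 count was 2. Without Control replicate 47 the counts were 3, 2 and 2. The D3 count was 2 without D3 replicate 12, 13 or 15. The D7 count was 0 without D7 replicate 33, 3 without D7 replicate 34, and 2 without D7 replicate 32 or Chronic replicate 41. Scaling at the percentile 75 moved the median of all probes from -0.06 to 0.05 for D7 and from -0.08 to 0.03 for Chronic, where it called 969 probes higher and 121 lower in place of 770 and 207. Background correction with normexp was not run, as the files used hold no background column. No paired analysis was possible because no replicate number occurs in more than 1 group. C1s and both receptors had spots near background in Control, and Serping1 had 2 Control values.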
